A study of Mus musculus with 25 samples.

Results

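The genes described here are 35 genes of mitosis and of the G2/M transition, chosen by name and not by a threshold on expression. All 35 were found among the 23366 gene symbols of the table, all were above 0 in every library (lowest value 0.15), and all passed the minimum for testing. The samples were bulk RNA-seq libraries of CD8+ T cells taken from tumours of C57BL/6 mice that carried B16F10, a transplanted mouse melanoma. Libraries followed a modified SMART-Seq 2 protocol, in which full-length cDNA of small samples is amplified. Tumour-infiltrating CD8+ T cells came from 4 genotypes: 16 wild-type libraries, 3 with a conditional knockout of Prdm1 (Prdm1 cKO), 3 with a conditional knockout of c-Maf (c-Maf cKO) and 3 with both genes knocked out (Prdm1/c-Maf cDKO, here cDKO). Blimp-1, the product of Prdm1, represses transcription in effector lymphocytes and plasma cells, and c-Maf, the product of Maf, is a basic leucine zipper factor. The design text names the expression signature left by losing 1 or both factors as the subject. The labels do not name the line that deletes the genes, and give no age or sex.

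Cells entering mitosis switch on a shared set of genes late in the cell cycle. CDK1 with its cyclins drives entry, kinetochores and the spindle attach and move the chromosomes, the spindle checkpoint delays anaphase until attachment is complete, the anaphase-promoting complex (APC/C) then marks cyclin B and securin for destruction, and cytokinesis separates the daughters. In T cells the level of these transcripts in a bulk sample is widely read as a measure of how many cells are cycling, and chronically stimulated T cells in tumours include a dividing fraction. In these bulk libraries, fewer cycling cells and less mitotic RNA per cell cannot be told apart.

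Many of these genes share a promoter layout, the CHR element (cell cycle genes homology region; TTTGAA was searched, and its variant TTCGAA as well), bound by the DREAM and MuvB complexes, and CCAAT boxes, bound by NF-Y. In RefSeq's table for GRCm38.p6, which spans 250 bases before to 50 bases after each start site, 31 of the 35 genes were matched; Kif20a, Ccna2, Aurkb and Tpx2 were not. Both strands were searched. A CHR was found in 24 of 31 (77.4%) against 19.4% of 26994 other genes, and a CCAAT in 24 of 31 (77.4%) against 37.9%. Both stood together in 21 of 31 (67.7%) against 7.6% of other genes, and 17 of 31 (54.8%) held at least 2 CCAAT boxes against 12.1%. In 1 gene, Cdca8, a CHR and a CCAAT box shared a base. The heptamer GAAAGTG, part of the sequence that Blimp-1 is known to bind, was found in 0 of 31 against 4.8% of other genes, which says only that these letters are not in these windows. The 150 bases before the start site of 8 genes are shown 5′ to 3′ on the gene's strand, with CHR elements and CCAAT boxes of either strand in capitals (a CCAAT box of the other strand reads ATTGG). The first 6 were called lower in a knockout and show the range of layouts; Cks2 and Racgap1 are shown because their expression did not follow the others.
Cdk1 (chr10:69352913-69353062, minus strand): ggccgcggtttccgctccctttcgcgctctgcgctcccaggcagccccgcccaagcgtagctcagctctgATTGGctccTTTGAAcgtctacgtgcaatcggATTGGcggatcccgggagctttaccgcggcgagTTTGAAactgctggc
Cdc20 (chr4:118437344-118437493, minus strand): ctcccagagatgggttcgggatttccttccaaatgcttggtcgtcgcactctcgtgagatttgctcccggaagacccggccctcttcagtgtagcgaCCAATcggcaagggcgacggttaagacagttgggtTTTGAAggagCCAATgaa
Ube2c (chr2:164769779-164769928, plus strand): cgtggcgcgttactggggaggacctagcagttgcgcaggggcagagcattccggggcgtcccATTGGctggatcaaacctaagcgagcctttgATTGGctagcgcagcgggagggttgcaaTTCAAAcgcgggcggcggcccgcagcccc
Kif11 (chr19:37376232-37376381, plus strand): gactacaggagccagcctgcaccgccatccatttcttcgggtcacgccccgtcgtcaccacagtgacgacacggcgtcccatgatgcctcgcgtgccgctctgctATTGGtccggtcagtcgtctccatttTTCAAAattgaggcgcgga
Ccnb2 (chr9:70421555-70421704, minus strand): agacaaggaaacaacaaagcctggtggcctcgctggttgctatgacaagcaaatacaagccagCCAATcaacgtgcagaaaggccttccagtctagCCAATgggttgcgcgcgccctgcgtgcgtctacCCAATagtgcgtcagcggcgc
Mki67 (chr7:135716380-135716529, minus strand): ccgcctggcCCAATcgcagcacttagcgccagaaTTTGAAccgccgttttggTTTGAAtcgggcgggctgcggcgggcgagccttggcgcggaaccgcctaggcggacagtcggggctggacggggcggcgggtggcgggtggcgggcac
Cks2 (chr13:51645082-51645231, plus strand): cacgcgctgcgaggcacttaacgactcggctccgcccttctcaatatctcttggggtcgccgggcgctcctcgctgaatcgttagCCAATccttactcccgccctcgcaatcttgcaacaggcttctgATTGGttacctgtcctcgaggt
Racgap1 (chr15:99651657-99651806, minus strand): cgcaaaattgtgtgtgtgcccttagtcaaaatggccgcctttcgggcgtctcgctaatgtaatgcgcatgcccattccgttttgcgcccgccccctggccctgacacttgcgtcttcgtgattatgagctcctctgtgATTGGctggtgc
Cdk1 carried a CHR 15 bases before the start and another farther upstream, each with a CCAAT box on its upstream side. Cdc20, Ube2c and Kif11 had 1 CHR each, starting 18, 29 and 19 bases before the start site. Ccnb2 had 3 CCAAT boxes in the printed stretch, with its CHR elements outside it. Cks2 had no CHR in the window and 4 CCAAT boxes, of which 2 stand in the printed stretch, and Racgap1 had 1 of each, its CHR just after the start site. Birc5, Mad2l1, Nuf2 and Nusap1 held neither motif in the tabled window, although all 4 were called lower in cDKO. The layout is a description of these windows and was not tested against the response.

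Facts of the series that touch these genes are the following. Column totals ran from 389650 to 475956. Prdm1 signal averaged 15.5 ± 5.31 in wild type (SD, n = 16), 2.93 in Prdm1 cKO, 17.0 in c-Maf cKO and 3.05 in cDKO (n = 3 each). Maf was low throughout (mean 0.462, highest 0.95 in wild type), and C1, a library labelled as c-Maf cKO, had 0.93. At such levels the Maf signal checks the loss of c-Maf in no library. The c-Maf cKO labels, and the c-Maf part of the cDKO labels, were taken as given. Columns of the table stand in 3 runs, each of wild type and 1 knockout genotype, called column sets here: set 1 with 7 wild-type and 3 Prdm1 cKO libraries, set 2 with 4 wild-type and 3 c-Maf cKO, and set 3 with 5 wild-type and 3 cDKO. The labels do not say that they are batches. The letters of the library codes cut across the sets. The cDKO libraries are C2, A1 and A2, while all wild-type libraries of set 3 carry the letter B. In set 2, C1 stands beside wild-type libraries of the letter B. The labels do not explain the letters, so the column set may not stand for a batch. Across the 3 sets, 355 of 11725 genes differed within wild type (3.03%), and 4 of the 35 were among them: Birc5 (adjusted p = 0.0114), Ccna2 (0.0212), Ccnb2 (0.0214) and Mki67 (0.0446), all highest in set 2. CD8 T cell markers summed to 1196.8 or more in every library, but markers of other cells were present too. Summed melanoma markers ran from 7.6 to 3875.6 in wild type, 797.1 to 1595.2 in Prdm1 cKO, 17.7 to 675.8 in c-Maf cKO and 124.8 to 1711.6 in cDKO.

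The summed signal of the 35 genes was lowest in the libraries that lack Prdm1. In wild type it ran from 574.1 to 1374.9 with a mean of 944.9 ± 238 (SD, n = 16). The Prdm1 cKO libraries A5, A6 and A9 stood at 726.2, 452.6 and 528.5, and the cDKO libraries C2, A1 and A2 at 580.8, 583.3 and 460.9. The c-Maf cKO libraries B10, B11 and C1 stood at 1111.2, 1136 and 840.3, within the wild-type range. Of the 6 libraries that lack Prdm1, 3 were below the lowest wild-type library, A4, and the others lay in its lower part. Wild type itself differed by column set, with means of 876.8, 1255 and 792.2 in sets 1, 2 and 3.

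The CD3 level was lower in the same groups. The mean of Cd3d, Cd3e and Cd3g, subunits of the T cell receptor complex, was 398 ± 102 in wild type (SD, n = 16; 193.9 to 548.4), 272 ± 34.0 in Prdm1 cKO, 452 ± 21.98 in c-Maf cKO and 296 ± 98.2 in cDKO (n = 3 each). Its part in the lower mitotic signal was not tested beyond the scaled values given here. Taken as a percentage of that mean, the 35 genes summed to 249.5% in wild type (124.3% to 426.8%), 210.9% in Prdm1 cKO, 226.7% in c-Maf cKO and 195.7% in cDKO, and all 9 knockout libraries lay inside the wild-type range. The highest wild-type value belonged to B3, which also had the lowest CD3 mean and the highest melanoma marker sum of the 25 libraries. By column set, the median percentage in wild type and knockout was 270.4% and 226.3% in set 1 and 266.6% and 241.4% in set 2. In set 3, which holds B3, it was 176.4% in wild type and 172.2% in cDKO. The wild-type CD3 mean averaged 337, 470.1 and 426.6 in sets 1, 2 and 3. The plot of summed signal shows both scales and the CD3 mean itself.

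**Figure D1:**
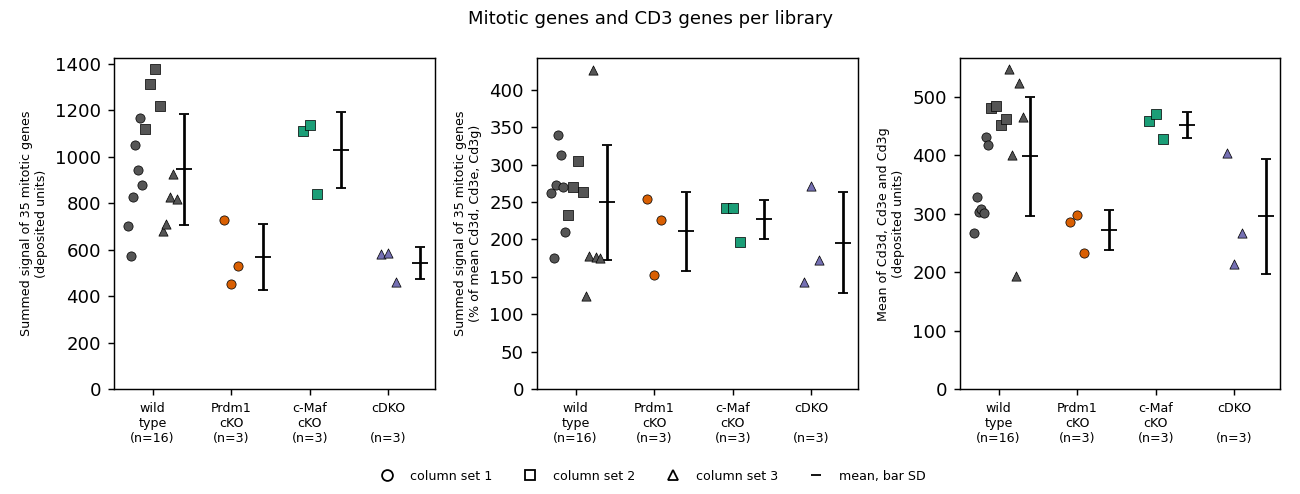
Summed signal of the 35 mitotic genes per library (left, deposited units), the same sum as a percentage of the mean of Cd3d, Cd3e and Cd3g (middle), and that CD3 mean (right, deposited units), by genotype; points are libraries, shapes are column sets, bars are the mean and SD. The Prdm1 cKO and cDKO libraries sit between 452.6 and 726.2 on the left, and groups overlap in the middle panel.

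Library by library, 32 of the 35 genes were below the wild-type mean in each of the 3 cDKO libraries, as were 35 in A6, 34 in A9 and 27 in A5 of Prdm1 cKO. In c-Maf cKO the number was 8 in B10, 6 in B11 and 23 in C1. Wild-type libraries covered almost the whole span, from 1 of 35 in A11 to 35 of 35 in A4. The median difference from the wild-type mean (log2) was -0.67, -0.68 and -1.27 in C2, A1 and A2, so A2 stood lowest of the cDKO libraries. Across the 16 wild-type libraries the genes moved together, as a description: the 595 pairs had a median Pearson r of 0.602 (-0.612 to 0.908), and 0.518 after centring within column sets. Cdk1 with Ccnb1 gave the highest value and Anln the lowest median with the others (-0.122). Correlations of other genes, or after CD3 scaling, were not computed, so the shared movement is not shown to be particular to these genes.

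**Figure D2:**
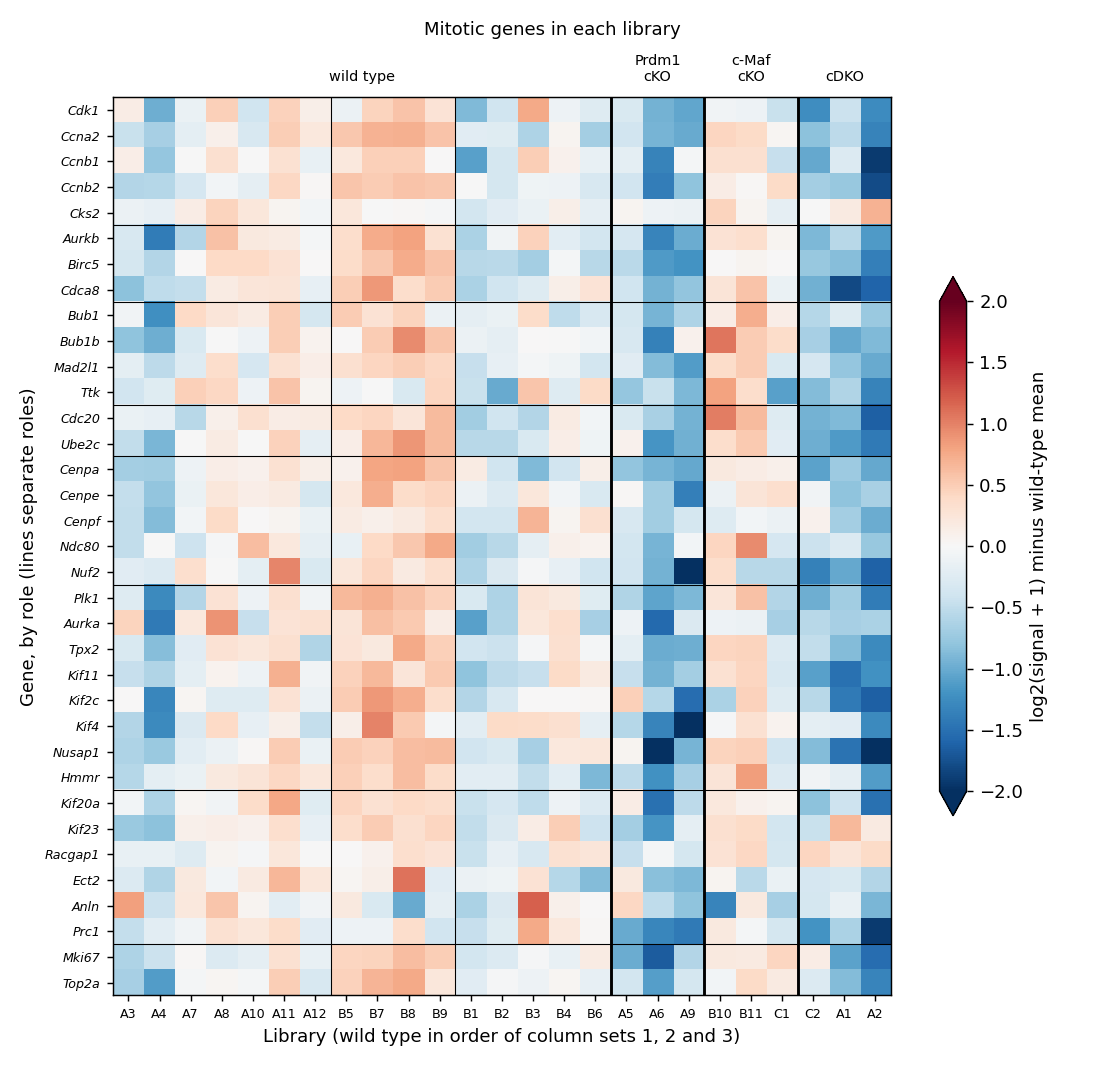
Difference of log2(signal + 1) from the wild-type mean for each mitotic gene (rows, grouped by role) in each library (columns, grouped by genotype and, for wild type, by column set); blue is lower, red higher, and the colour scale ends at 2. The cDKO and Prdm1 cKO columns are mostly blue. Exceptions in cDKO are Racgap1 in C2, A1 and A2, Cks2 and Kif23 in A1 and A2, and Mki67 and Cenpf in C2. Wild-type column set 2 is mostly red.

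Loss of both factors, cDKO against wild type. Most mitotic genes had lower signal in the double knockout: 22 of 35 were called lower and 0 higher, where 6.85% of the 12251 genes tested were called lower and 5.09% higher. The median log2 fold change of the 35 was -0.88, against -0.03 over all genes tested. The genes of smallest adjusted p were Prc1, Cdca8, Kif11, Cdc20 and Ccnb2, which bundle the spindle midzone, anchor Aurora B, push spindle poles apart, activate the APC/C and activate CDK1. In 9 of the 35 every cDKO library lay below every wild-type library, a pattern seen in 2.16% of genes tested: Ccnb2, Birc5, Cdca8, Cdc20, Ube2c, Nuf2, Kif11, Nusap1 and Prc1. Against only the 5 wild-type libraries of column set 3 it held for 13 of the 35, against 5.38% of genes.

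CDK1 and its cyclins. Of the 5 genes, 4 were called lower in cDKO. Cdk1, the kinase that starts mitosis, ran from 12.82 to 44.85 in wild type (median 26.4) and stood at 10.47, 19.21 and 10.44 in cDKO libraries C2, A1 and A2. C2 and A2 were below the lowest wild-type library and A1 was not, and the fitted change was -0.98 ± 0.28 (log2, SE; adjusted p = 0.0202). Ccnb2, a cyclin B that activates CDK1, had 35.29, 33.57 and 15.92 in cDKO against 37.89 to 85.24 in wild type (median 54.6). The groups did not overlap and Ccnb2 fell by 1.08 ± 0.25 (adjusted p = 0.00486); within column set 3, wild type ran from 44.81 to 57.06. Ccnb1, the other mitotic cyclin B, was at 15.65, 26.95 and 8.04 against 14.97 to 46.82 (median 34.2). Only A2 was below the wild-type range, and the change was -1.07 ± 0.30 (adjusted p = 0.0203). Ccna2, the cyclin A that acts in S phase and G2, was at 23.95, 29.59 and 16.46 against 26.4 to 70.73 (median 41), with A1 inside the range (-0.89 ± 0.26, adjusted p = 0.0262).

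Cks2, a small subunit that binds CDK1, did not follow its partners. It stood at 59.04, 67.56 and 96.16 in cDKO against 45.8 to 81.32 in wild type (median 58.6). A2, the lowest library for all 3 cyclins, was above every wild-type library for Cks2. The fitted difference was 0.29 ± 0.15 (adjusted p = 0.229). Its paralogue Cks1b, which is not among the 35, fell by 1.26 ± 0.21 (adjusted p = 0.000287), with 27.1 to 45.5 in cDKO against 65.81 to 138.61 in wild type.

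The chromosomal passenger complex. Aurkb, Birc5 and Cdca8 encode the kinase Aurora B, survivin and borealin, which together correct faulty chromosome attachment. Cdca8 stood at 19.37, 10.31 and 11.96 in cDKO against 21.37 to 71.16 in wild type (median 42.3), all below wild type, and fell by 1.46 ± 0.26 (adjusted p = 0.000707). Birc5 stood at 41.31, 38.84 and 26.83 against 43.67 to 118.82 (median 71.1), also without overlap, and fell by 0.99 ± 0.26 (adjusted p = 0.0113). Birc5 was 1 of the 4 genes that differ between column sets, and with the column set as covariate its change was -0.51 (adjusted p = 0.137). Aurkb stood at 15.3, 19.84 and 12.96 against 10.6 to 52.43, inside the wild-type range, and missed the threshold (-0.86 ± 0.30, adjusted p = 0.0661).

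The spindle checkpoint and its target. Bub1, Bub1b (BubR1), Mad2l1 (MAD2) and Ttk (the kinase MPS1) hold back the APC/C, which needs Cdc20 as activator and Ube2c as ubiquitin-conjugating enzyme. Both APC/C partners were called lower. Cdc20 stood at 17, 17.68 and 10.1 in cDKO against 20.43 to 52.33 in wild type (median 36.6) and fell by 1.16 ± 0.25 (adjusted p = 0.00298). Ube2c stood at 48.95, 44.01 and 36.17 against 51.57 to 180.76 (median 96.9) and fell by 1.18 ± 0.29 (adjusted p = 0.00759). For both genes the groups were separate, by a small margin at the wild-type low end. Mad2l1 stood at 22.74, 16.5 and 14.02 against 19.85 to 41.45 (median 27.7), with C2 inside the range (-0.71 ± 0.22, adjusted p = 0.0355). Bub1b and Ttk were called close to the threshold (adjusted p = 0.0494 and 0.0486) and kept the call in 8 of 30 and 8 of 29 alternatives. Bub1 stood at 5.85, 7.45 and 5.09 against 3.31 to 13.43, inside the range, and was not called (-0.52 ± 0.26, adjusted p = 0.211).

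Centromere and kinetochore. Of 5 genes, 2 were called lower. Nuf2, a subunit of the NDC80 complex that grips microtubules, stood at 2.69, 3.66 and 2.07 in cDKO against 5.16 to 17.66 in wild type (median 7.9) and fell by 1.33 ± 0.31 (adjusted p = 0.00555). Its partner Ndc80 stood at 8.69, 9.87 and 6.78 against 7.13 to 21.14 (median 11.9), with only A2 below the range, and was not called (-0.49 ± 0.27, adjusted p = 0.266). Cenpa, the histone H3 variant of centromeres, stood at 36.33, 46.2 and 37.41 against 41.21 to 135.37 (median 82.9) and fell by 0.94 ± 0.25 (adjusted p = 0.0147), with A1 inside the range. Cenpf, a large protein of the outer kinetochore, stood at 2.73, 1.2 and 0.77 against 0.92 to 4.6 and was not called (-0.53 ± 0.25, adjusted p = 0.193). Cenpe, a kinetochore kinesin, was not called either (-0.51 ± 0.27).

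Spindle kinases, motors and microtubule proteins. Of 8 genes, 5 were called lower: Plk1, Tpx2, Kif11, Kif2c and Nusap1. Kif11, the motor Eg5 that separates the spindle poles, stood at 4.23, 2.97 and 3.8 in cDKO against 5.41 to 17.31 in wild type (median 10.2). The 3 cDKO libraries were close together and below all 16 wild-type libraries, and Kif11 fell by 1.27 ± 0.26 (adjusted p = 0.00232). Nusap1, which binds and bundles spindle microtubules, had the largest fall of the 35, -1.47 ± 0.37 (adjusted p = 0.00924), with 11.47, 7.14 and 4.46 against 12.63 to 34.26 (median 21). Plk1, a kinase needed throughout mitosis, stood at 10.66, 13.12 and 7.64 against 8.51 to 36.31 (median 22.95). Only A2 was below the range, and the change was -1.03 ± 0.30 (adjusted p = 0.0229). Tpx2, the activator of Aurora A, stood at 9.19, 6.79 and 4.9 against 6.91 to 23.15 (median 14.2) and fell by 0.88 ± 0.26 (adjusted p = 0.0249). Kif2c, a kinesin that shortens microtubules, fell by 1.21 ± 0.35 (adjusted p = 0.0239). Aurka (Aurora A), Kif4 (a chromosome-bound kinesin) and Hmmr (a spindle and hyaluronan-binding protein) were not called, with changes of -0.62, -0.57 and -0.46.

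Cytokinesis. These 6 genes were the least uniform group. Prc1, which bundles the microtubules of the spindle midzone, stood at 8.53, 13.09 and 4.82 in cDKO against 14.64 to 35.95 in wild type (median 19.7). It had the smallest adjusted p of the 35 (-1.25 ± 0.23, adjusted p = 0.000703), without overlap. Kif20a, a kinesin of the midzone, fell by 0.91 ± 0.27 (adjusted p = 0.0279). Kif23 and Racgap1 encode the 2 proteins of centralspindlin, the complex that directs the cleavage furrow through Ect2, and neither was called. Racgap1 stood at 61.16, 53.39 and 59.48 in cDKO against 32.85 to 57.01 in wild type (median 45.2), with C2 and A2 above all wild-type libraries. It had the largest positive difference of the 35, 0.35 ± 0.16 (adjusted p = 0.163). Kif23 stood at 6.74, 15.4 and 10.94 against 4.95 to 13.97 (0.13 ± 0.27). Ect2 and Anln (anillin, a scaffold of the contractile ring) differed by -0.41 ± 0.28 and -0.47 ± 0.34; Anln stood at 2.73, 3.3 and 1.51 against 1.35 to 9.82, inside the range.

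Mitotic chromosomes. Mki67, the proliferation marker Ki-67 that coats mitotic chromosomes, stood at 15.76, 6.15 and 4.26 in cDKO against 8.82 to 22.02 in wild type (median 13.2). C2 was above the wild-type median while A1 and A2 were below every wild-type library, and the change was -0.81 ± 0.27 (adjusted p = 0.0452), a call kept in 12 of 30 alternatives. Top2a, the topoisomerase that untangles sister chromatids, stood at 34.5, 22.62 and 16.27 against 18.7 to 71.54 (median 41.1) and changed by -0.82 ± 0.27 (adjusted p = 0.0458), a call kept in 10 of 30. In Top2a only A2 was below the wild-type range.

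**Figure D3:**
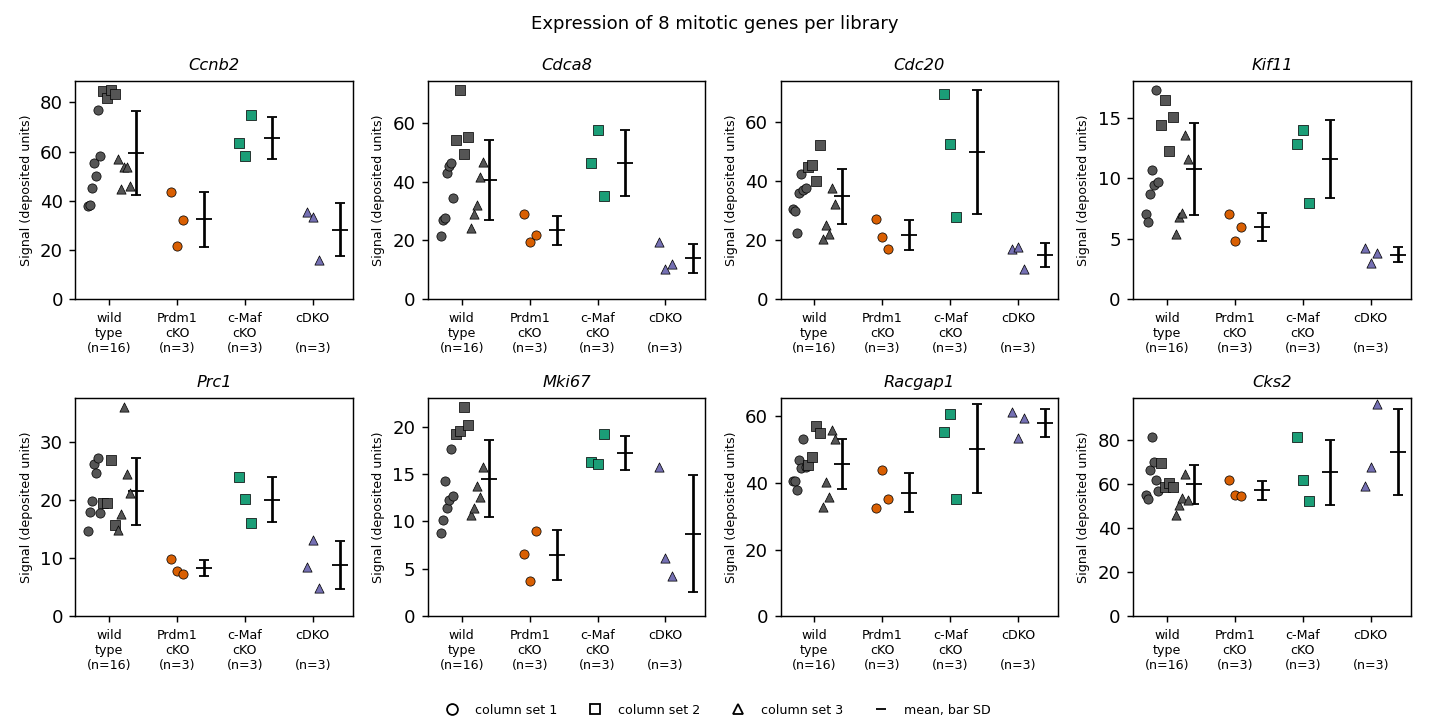
Signal (deposited units) of Ccnb2, Cdca8, Cdc20, Kif11, Prc1, Mki67, Racgap1 and Cks2 per library, by genotype; shapes are column sets, bars are the mean and SD. Kif11 lies between 2.97 and 4.23 in cDKO, below all wild-type libraries, while Racgap1 and Cks2 lie above the wild-type median in all 3 cDKO libraries and Mki67 has 1 cDKO library inside the wild-type range.

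The count of called genes in cDKO changed with the scaling, the column set and the libraries. After scaling to the CD3 mean, 3 of 35 were called lower (1.51% of all genes) and 1 higher (7.71%). The lower genes were Cdca8 (-1.06, adjusted p = 0.0107), Kif11 (-0.92, adjusted p = 0.0304) and Nusap1 (-1.09, adjusted p = 0.0448), and the higher one was Racgap1 (0.77, adjusted p = 0.0306). That scaling moved the median of all genes to 0.31 and the median of the 35 to -0.49, a distance of -0.79 between them against -0.85 unscaled. With the column set as covariate, 7 were called lower (3.58%): Ccnb2, Cdca8, Cdc20, Ube2c, Kif11, Nusap1 and Prc1, and the median was -0.70. With both together, an alternative chosen after seeing the data, 0 were called lower and 1 higher, and the median was -0.26 against 0.36 over all genes. Without library A2, 3 were called lower, and without A1 or without C2, 14; the median stayed between -1.02 and -0.67 whichever library was left out.

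Other cells in the cDKO libraries were measured beside this. Summed erythroid markers were 463.1, 2275.5 and 4253.6 in C2, A1 and A2, against 1.4 to 1568.1 in wild type, and 4 of 6 tested erythroid markers were called higher. Of the other lists, 1 of 3 B cell markers and 1 of 1 tested marker of fibroblasts and endothelium were called higher, and 1 of 13 macrophage, 1 of 3 NK cell, 1 of 6 dendritic cell and 1 of 8 CD8 T cell markers were called lower. Fibroblast and endothelial markers summed to 11.2, 16 and 18.4 in C2, A1 and A2 against 3.4 to 13.9 in wild type, and B cell markers to 10.7, 9.2 and 8.5 against 0.4 to 9.9. NK cell markers summed to 90.5, 28 and 33.7 against 38.6 to 260. C2 was thus inside the wild-type range for erythroid, melanoma (124.8), fibroblast and NK cell markers and above it for B cell markers, and its CD3 mean was 405. Its 32 of 35 mitotic genes below the wild-type mean compare with 35 in wild-type A4 and 34 in wild-type B1 and B2. With the scores of the macrophage and monocyte, erythroid and melanoma lists as covariates, 15 of the 35 were called lower (5.46% of genes) and the median was -1.11. The other lists were not in that fit. The part of other cells in the result was not tested beyond these values.

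Loss of Prdm1 alone, Prdm1 cKO against wild type. All 35 genes had a negative fitted difference, and 6 were called lower and 0 higher, where 1.87% of genes tested were called lower and 1.58% higher. The median was -0.70 against -0.02 over all genes. The called genes were Prc1, Kif4, Nuf2, Mki67, Birc5 and Cenpa. Prc1 alone had every library below all of wild type, a pattern of 0.816% of genes; against the 7 wild-type libraries of set 1 it held for 4 of the 35 (Ttk, Cenpa, Nuf2 and Prc1), against 2.29% of genes.

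Prc1 stood at 9.83, 7.87 and 7.22 in A5, A6 and A9 and fell by 1.24 ± 0.23 (adjusted p = 0.00396), about as far as in cDKO. Kif4 stood at 2.91, 1.32 and 0.15 against 1.42 to 10.54 in wild type (median 5.01) and had the largest fall of this comparison, -1.41 ± 0.34 (adjusted p = 0.0212). A5 was inside the wild-type range and A9 far below it. Nuf2 stood at 6.29, 3.91 and 0.57 and fell by 1.30 ± 0.31 (adjusted p = 0.0222), with the same order of libraries. Mki67 stood at 6.56, 3.77 and 9, with A9 just inside the wild-type range, and fell by 1.08 ± 0.27 (adjusted p = 0.0254). Birc5 stood at 48.41, 31.8 and 30.17 and fell by 0.95 ± 0.26 (adjusted p = 0.0364), and Cenpa stood at 44.43, 40 and 37.63 (-0.91 ± 0.25, adjusted p = 0.0424). For both, A5 was the library inside the range.

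Among those not called, Ccnb2 was nearest the threshold, with 43.76, 21.44 and 32.31 (-0.86 ± 0.25, adjusted p = 0.0501). Cdk1 (21.1, 13.17 and 12.27; -0.76 ± 0.28, adjusted p = 0.11), Cdca8 (28.96, 19.42 and 21.84; -0.71 ± 0.26, adjusted p = 0.114) and Kif11 (7.07, 4.78 and 5.96; -0.70 ± 0.26, adjusted p = 0.123) differed by about 0.7 and missed it. Nusap1 stood at 22.47, 2.54 and 10.92, with A5 above the wild-type median (-1.19 ± 0.37, adjusted p = 0.064). Cks2 stood at 61.74, 54.86 and 54.29 and differed least (-0.06 ± 0.15). Racgap1 differed by -0.29 ± 0.16 (adjusted p = 0.309).

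The count depended on the libraries and settings. Leaving out 1 library at a time gave from 1 call (without A6) to 12 (without wild-type A4), with 2 without A9 and 10 without A5. CD3 scaling left 0 calls (0.457% of genes lower), and the median was -0.26 against 0.39 over all genes. At an unadjusted p under 0.05 in limma there were 5 of 35 and 3237 of all 12251 genes, a smaller share of the 35 than of all genes. These shares do not separate direction. With that scaling 586 of all genes were called higher and 56 lower, while 31 of the 35 differences were below 0. With the column set as covariate, Birc5 and Prc1 were called (0.302%). With marker scores (macrophage and monocyte, erythroid and melanoma lists only), 0 were called (0.0816%), with a median of -0.60 and 35 of 35 differences below 0. At an unadjusted p under 0.05 in limma there were 13 of 35 and 1351 of all 12251 genes. Macrophage markers summed to 1394, 1573.6 and 4203.4 in A5, A6 and A9 against 67.2 to 2371.5 in wild type, with 1 of 13 called higher. Erythroid markers summed to 221, 1073.1 and 1842.4 against 1.4 to 1568.1, and B cell markers to 10.4, 12.5 and 8.5 against 0.4 to 9.9. Fibroblast and endothelial markers summed to 17.3, 15.1 and 9.6 against 3.4 to 13.9, and neutrophil markers to 8.8, 39.2 and 9 against 4 to 18.6; 0 markers of these 4 lists were called by limma. The part of other cells in the result was not tested beyond these values.

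Loss of c-Maf alone. No mitotic gene was called in c-Maf cKO against wild type: 0 of 35 by limma, as were 0% of all genes. The median was 0.14 against 0.00 over all genes, and 8 of 35 differences were below 0. At an unadjusted p under 0.05 there was 1 of the 35, Bub1b, and 755 of all genes. Bub1b stood at 25.17, 16.76 and 15.03 in B10, B11 and C1 against 5.31 to 23.03 in wild type and had the largest positive difference, 0.65 ± 0.29 (adjusted p = 0.8). Anln had the largest negative one, with 0.9, 4.42 and 1.98 (-0.60 ± 0.34, adjusted p = 0.819). Cdc20 spread widely, with 69.46, 52.35 and 27.85, B10 and B11 above every wild-type library (highest 52.33) and C1 below the wild-type median. Cdk1 (24.99, 24.52 and 19.11), Ccnb2 (63.4, 58.02 and 74.99) and Mki67 (16.28, 16.01 and 19.24) all lay inside the wild-type range.

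The median fell below 0 with the column set and with CD3 scaling. Relative to the median of all genes, only the column set turned its direction: the distance was 0.13 unscaled, 0.11 after CD3 scaling and -0.27 with the column set. With the column set as covariate the median was -0.30 against -0.02 over all genes, 30 of 35 differences were below 0, and 0 of 35 were called. At an unadjusted p under 0.05 in limma there were 1 of the 35 and 525 of all 12251 genes. After CD3 scaling the median was -0.08 against -0.19 over all genes, with 26 of 35 below 0, and 0 were called. At an unadjusted p under 0.05 in limma there were then 0 of the 35 and 477 of all 12251 genes. Wild type of set 2 had the highest mitotic signal of the 3 sets. In 6 of 35 genes all c-Maf cKO libraries lay below the 4 wild-type libraries of set 2 (Ccna2, Ccnb2, Birc5, Cenpf, Aurka and Kif20a), against 4.07% of genes tested. Ccnb2, for one, averaged 83.8 ± 1.49 (n = 4) in wild type of set 2 and 65.5 ± 8.67 (n = 3) in c-Maf cKO.

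**Figure D4:**
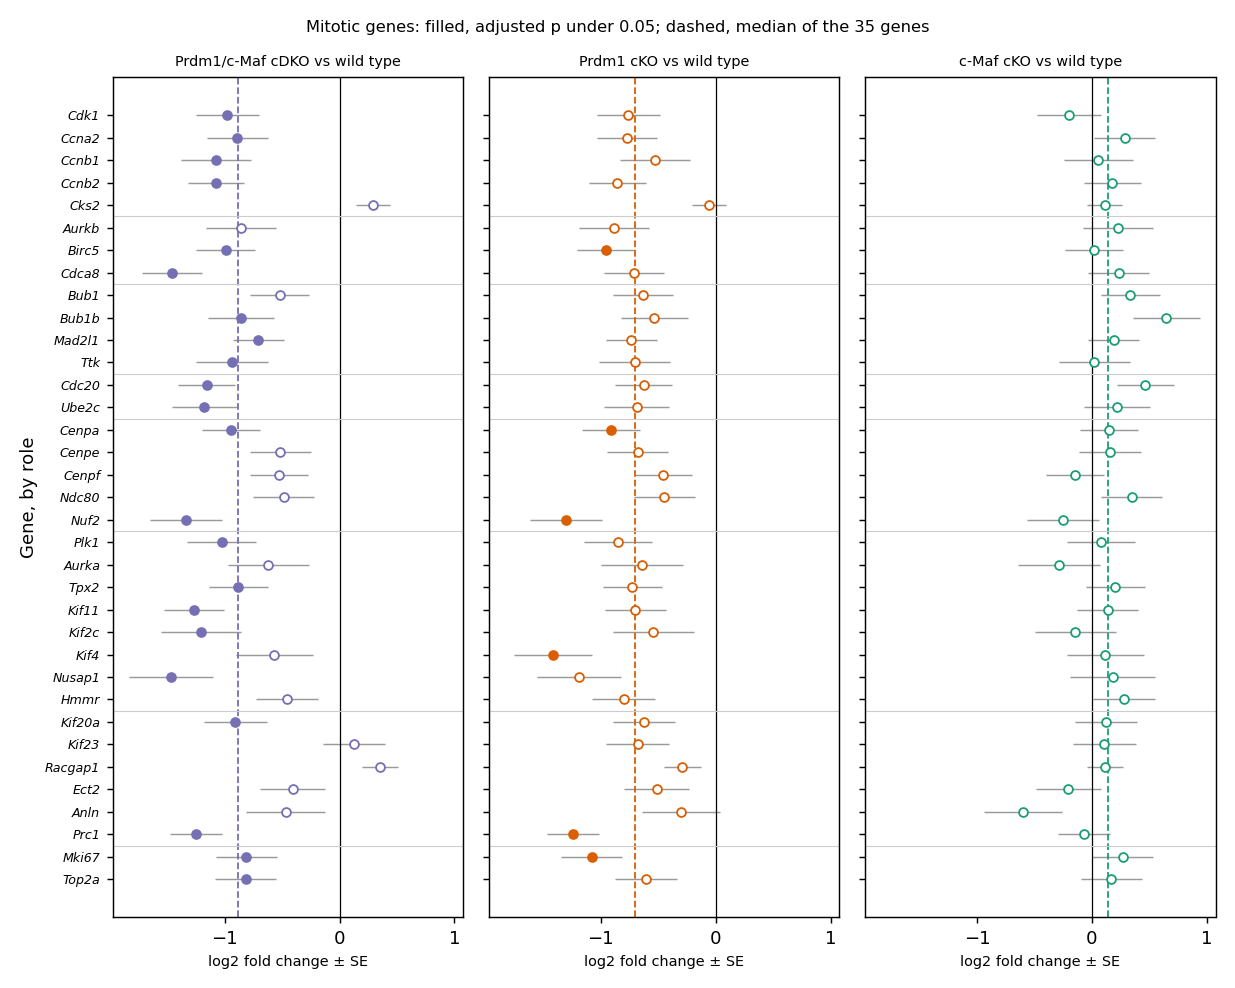
Log2 fold change (x axis, ± SE) of each mitotic gene (y axis, grouped by role) in cDKO, Prdm1 cKO and c-Maf cKO against wild type; filled points passed the adjusted p threshold, and the dashed line marks the median of the 35. There are 22 filled points for cDKO, 6 for Prdm1 cKO and 0 for c-Maf cKO, with medians of -0.88, -0.70 and 0.14.

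Comparisons between knockouts. Directly against Prdm1 cKO, cDKO had 0 of 35 called by limma (0.392% of all genes called). The median was -0.07 (0.04 with the column set as covariate). At an unadjusted p under 0.05 there were 3 of 35 and 1544 of all 12251 genes, a share of the 35 no larger than over all genes. The 3 were Racgap1 (0.64 ± 0.21), Kif23 (0.81 ± 0.35) and Cdca8 (-0.74 ± 0.34). Standard errors ran from 0.19 to 0.48 over the 35 genes, against 0.15 to 0.37 in the comparison with wild type. Kif4 had the largest positive difference (0.85 ± 0.44, adjusted p = 0.434) and Cdca8 the largest negative one (adjusted p = 0.359). Against c-Maf cKO, cDKO had 13 of 35 called lower (5.61% of genes) and a median of -1.03. Those of smallest adjusted p were Cdc20 (-1.62 ± 0.32, 0.00297), Cdca8 (-1.69 ± 0.34, 0.00324), Kif11 (-1.40 ± 0.34, 0.0107), Bub1b (-1.51 ± 0.37, 0.0116) and Prc1 (-1.18 ± 0.29, 0.0117). Only Cdca8 was called after CD3 scaling (0.931% of genes), and 0 with the column set as covariate (0.18%). With that covariate each knockout is set against the wild-type columns of its column set. Leaving out A2 or B10 left 4 calls, B11 left 6 and A1 left 7.

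Prdm1 cKO against c-Maf cKO gave 2 of 35 called lower (0.939% of genes), Prc1 (-1.17 ± 0.29, adjusted p = 0.0473) and Mki67 (-1.35 ± 0.35, adjusted p = 0.048), with a median of -0.93. These groups stand in different column sets, whose wild-type libraries differ in summed mitotic signal (876.8 and 1255). With the column set as covariate 0 were called by limma and the median was -0.31. At an unadjusted p under 0.05 there were then 1 of the 35 and 732 of all 12251 genes. Leaving out A6, A9, B10 or B11 also left 0 calls, C1 left 1, and leaving out A5 gave 6. Kif4 differed most (-1.53 ± 0.44, adjusted p = 0.0661), and Anln had the largest positive difference (0.30 ± 0.44). The departure from additivity asks whether cDKO differs from the sum of the single losses. It was called for 0 of 35 by limma (0.00816% of genes, 1 gene in all), with a median of -0.20. At an unadjusted p under 0.05 there were 3 of 35 and 1436 of all 12251 genes, a share of the 35 no larger than over all genes. The 3 were Cdc20 (-0.99, adjusted p = 0.328), Cdca8 (-0.98, adjusted p = 0.363) and Bub1b (-0.98, adjusted p = 0.418). The direction of the median departure turned with the column set as covariate, to 0.25 (0.03 over all genes) with 6 of 35 below 0. With CD3 scaling added the median was 0.37 (0.14 over all genes). These comparisons share libraries with those against wild type and are not independent of them.

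Other genes of the cell cycle were counted from lists outside the 35. In cDKO against wild type, where 6.85% of all genes were called lower and 5.09% higher, 14 of 20 S phase genes were called lower, led by Tk1 (thymidine kinase, -1.24 ± 0.27, adjusted p = 0.00319) and the replicative helicase subunits Mcm6 (-0.89) and Mcm2 (-0.75). Of 14 condensin and cohesin genes 5 were lower, led by Ncaph (-1.34 ± 0.24, adjusted p = 0.00055), Ncapg (-1.06) and Smc2 (-0.97), all condensin subunits. Of 21 further spindle and cytokinesis genes 7 were lower, led by Stil (-1.04), Melk (-0.86) and Tacc3 (-1.11), of 28 further centromere genes 4, led by Spc24 (-0.63), Cenpw (-0.53) and Cenpm (-0.78), and of 7 further kinesins 2, Kif22 (-1.22) and Kif15 (-0.90). Of the remaining lists, 0 of 15 APC/C subunits and regulators and 0 of 7 G2/M transcription factors were called by limma in either direction, with medians of -0.18 and -0.14 and with 1 and 0 genes at an unadjusted p under 0.05. Over all genes tested, 3043 of 12251 had an unadjusted p under 0.05 in limma. At list sizes this small, 0 calls lie near the share over all genes. With the column set as covariate (3.58% of all genes lower), the lower calls were 4 of 20 S phase, 2 of 14 condensin and cohesin, 1 of 21 spindle and cytokinesis, 0 of 28 centromere and 0 of 7 kinesin genes, of which 9 centromere and 3 kinesin genes had an unadjusted p under 0.05 in limma. With marker scores (5.46%) the lower calls were 6, 2, 2, 1 and 0 in the same order, with 2 kinesins at an unadjusted p under 0.05 in limma. Over all genes, 2616 of 12251 had such a p with the column set and 2933 with marker scores. After CD3 scaling 1.51% of all genes were called lower. In the same order of lists, the lower calls were then 0 of 20, 1 of 14, 0 of 21, 0 of 28 and 0 of 7. At an unadjusted p under 0.05 in limma there were 4, 4, 3, 0 and 2, and 3019 of all 12251 genes in either direction. The transcription factor list holds Foxm1 and Mybl2, which activate mitotic genes; Foxm1 stood at 1.68 to 5.13 in cDKO against 1.61 to 7.44 in wild type.

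Regulators upstream of S phase and mitosis moved in part. Cdk6, a kinase of G1, was the only 1 of 8 G1 cyclins and kinases called (-1.53 ± 0.37, adjusted p = 0.00713), and E2f3 the only 1 of 13 E2F and Rb family genes (-0.67). Among 6 tested CDK inhibitors, Cdkn1b (p27) rose by 0.86 ± 0.16 (adjusted p = 0.00111), with 19.56 to 21.83 in cDKO above all of wild type (8.1 to 17.18), Cdkn2d (p19) rose by 0.85, and Cdkn2b (p15) fell by 1.44. Of 9 genes known to restrain T cell proliferation, Foxp1 (1.14 ± 0.19, adjusted p = 0.000356), Klf2 (1.53) and Btg1 (0.94) were called higher and 0 lower. After CD3 scaling 0 of 20 S phase genes were called by limma. At an unadjusted p under 0.05 there were 4 of the 20 and 3019 of all 12251 genes, a smaller share of the list than of all genes. These shares do not separate direction. With that scaling 944 of all genes were called higher and 185 lower, while the median of the S phase list was -0.40. With that scaling 2 of 6 CDK inhibitors and 5 of 9 proliferation brakes were called higher, where 7.71% of all genes were and the median of all genes moved to 0.31. The higher calls were 2 and 4 with the column set as covariate (4.39% of all genes) and 1 and 1 with marker scores (3.68%). Lower calls after CD3 scaling, with the column set and with marker scores were 1, 1 and 1 of 8 G1 cyclins and kinases. They were 0, 0 and 1 of 13 E2F and Rb family genes and 1, 0 and 0 of 6 CDK inhibitors.

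In Prdm1 cKO, where 1.87% of all genes were called lower, 10 of 20 S phase genes were called lower, led by the helicase subunits Mcm3 (-1.10), Mcm5 (-1.15) and Mcm6 (-0.95). Of 21 spindle and cytokinesis genes 5 were lower, led by Incenp (-1.50 ± 0.27, adjusted p = 0.00396), the scaffold of the chromosomal passenger complex, with Cdca3 (-1.29) and Melk (-1.15). Called lower too were 5 of 28 centromere genes, led by Cenpk (-1.41), Cenpw (-0.69) and Spc24 (-0.68), and 4 of 14 condensin genes, led by Ncapg (-1.25), Ncapg2 (-0.88) and Ncaph (-0.88). The APC/C subunits Anapc4 (-0.68) and Anapc2 (-0.61), 2 of 15 in their list, and the CDK subunit Cks1b (-0.73), 1 of 8 CDK1 regulators, were called lower. Both lists had 0 calls by limma after CD3 scaling, with the column set and with marker scores. At an unadjusted p under 0.05 these settings gave 1, 2 and 2 APC/C genes and 1, 2 and 1 CDK1 regulators. Of the CDK inhibitors 1 of 6 was called, Cdkn2b (-1.52), and of the proliferation brakes 0 of 9 by limma. At an unadjusted p under 0.05 there were 5 of the 9 brakes and 2529 of all 12251 genes. After CD3 scaling 0 S phase, centromere or condensin genes were called. In each of these lists 3 had an unadjusted p under 0.05 in limma, as did 3237 of all 12251 genes, a larger share than in any of the lists. These shares do not separate direction. With that scaling 586 of all genes were called higher and 56 lower, while the medians of the S phase, centromere and condensin lists were -0.35, -0.23 and -0.16. With that scaling 3 of 9 proliferation brakes were called higher, where 4.78% of all genes were and the median of all genes was 0.39. With the column set as covariate (0.302% of all genes lower), 3 S phase, 4 spindle and cytokinesis, 1 centromere and 0 condensin genes were called, with 9 condensin genes at an unadjusted p under 0.05 in limma. With marker scores (0.0816%), 0 genes of these 4 lists were called by limma, with 10, 13, 8 and 10 at an unadjusted p under 0.05. Over all genes, 1776 of 12251 had such a p with the column set and 1351 with marker scores. In c-Maf cKO 0 genes of these lists were called by limma, with at most 2 in a list at an unadjusted p under 0.05 (755 of all 12251 genes).

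**Figure D5:**
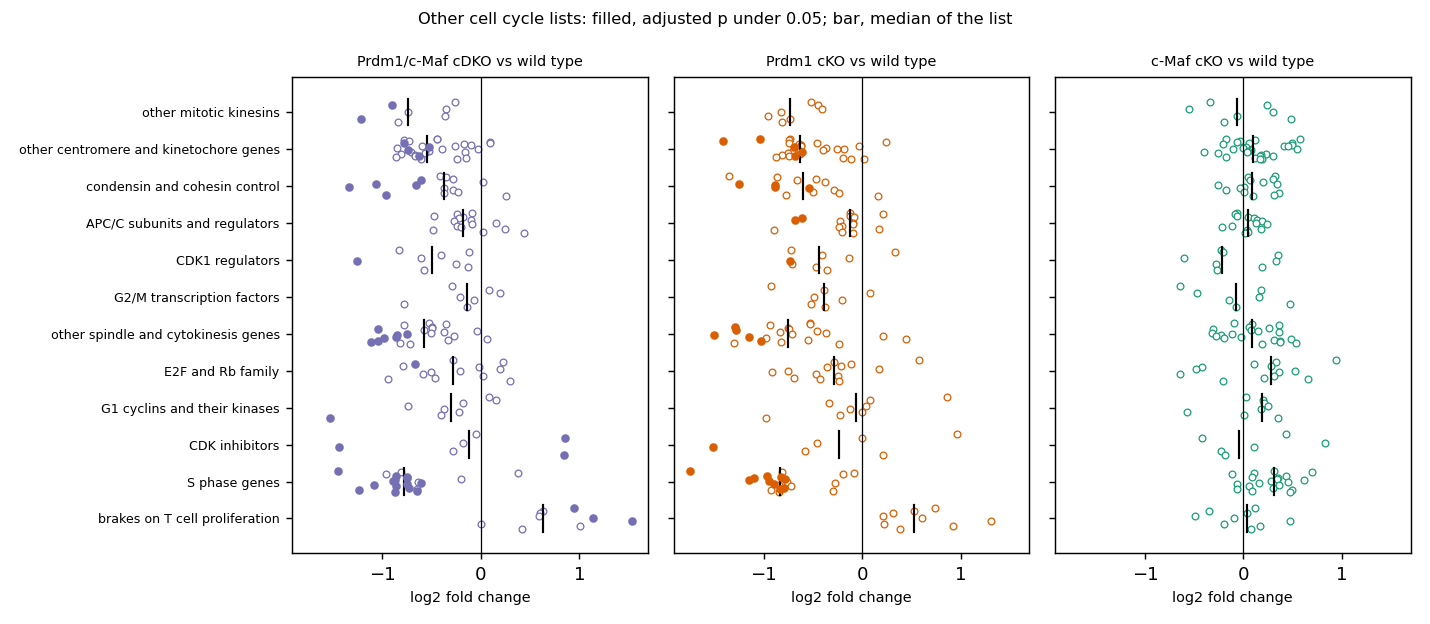
Log2 fold change (x axis) of each gene of 12 other cell cycle lists (y axis) in the 3 knockouts against wild type; filled points passed the adjusted p threshold, and the bar is the list's median. In cDKO the S phase list has 14 of 20 filled on the left and the proliferation brakes 3 of 9 on the right; in c-Maf cKO 0 are filled.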

How the data were processed

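Bulk RNA-seq of tumour-infiltrating CD8+ T cells was read from 1 deposited table of 23366 gene symbols by 25 libraries. The table holds a normalised expression signal made by the authors, who name TopHat, RSEM, DESeq and the mouse build mm9 in the submitters' processing notes; their versions, order and the final scale: not given in the sources used here. This deposited signal is no count: depth is unknown and no count model or counting interval was used. Low values were larger for short genes (10th percentile of non-zero values 0.42 for the shortest quartile of transcripts, 0.06 for the longest; 21732 symbols matched), so levels were compared between libraries of a gene and not between genes. Signal of a gene with near-identical copies can be split by the authors' counting.

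Columns were given their genotype from their names, which carry no replicate number. The labels name no batch, sex, age, day or deleting line and do not say that each library is another animal; p-values therefore reflect only library-to-library spread, which may be technical. Values were taken as log2(value + 1), which understates changes of low genes. Genes reaching 1 in 3 or more libraries were kept (12251, all members among them). All 25 libraries entered 1 fit with limma 3.58.1 in R 4.3.3 (trend and robust options), and a gene was called at a Benjamini-Hochberg adjusted p under 0.05 over all genes tested; the fit was tested on simulated data. Errors of fold changes are standard errors. Alternatives were division by the mean of Cd3d, Cd3e and Cd3g, other scalings, pseudocounts and minimums, column-set and marker-score covariates, and leaving out each library. Marker scores were the mean log2 values of the macrophage and monocyte, erythroid and melanoma lists, with no other list.

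Promoters are RefSeq's on GRCm38.p6, a later build than mm9, so their coordinates stand beside no coordinate of the authors. Members, roles, other lists and tests were chosen with earlier results of these data known. The members described with their values are those that carry each role, the 5 of smallest adjusted p in each comparison, and the largest rise and fall; of other lists, up to 3 called genes of smallest adjusted p in each direction are named for each knockout against wild type.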

Additional observations from a re-analysis of the deposited data

How the results depend on the processing

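No paired analysis was possible because the columns carry no replicate number, so no fit with a replicate block was run. In the following, calls are counts of the 35 and medians are median log2 fold changes. For cDKO against wild type, CD3 scaling gave 4 calls (3 lower, 1 higher) and a median of -0.49 against 0.31 over all genes. The column set as covariate gave 7 calls. Both together, chosen after seeing the data, gave 1 call and -0.26 against 0.36 over all genes. A pseudocount of 10 gave a median of -0.49. Leaving out 1 library gave 3 to 23 calls and medians of -1.02 to -0.67. For Prdm1 cKO, CD3 scaling gave 0 calls and -0.26 against 0.39 over all genes, the column set 2 calls and marker scores 0 calls. CD3 scaling with the column set gave 0 calls and -0.34 against 0.22 over all genes. Leaving out 1 library gave 1 to 12 calls and -0.97 to -0.59. For c-Maf cKO the median was -0.30 with the column set (-0.02 over all genes), -0.08 with CD3 scaling (-0.19 over all genes) and -0.24 with both (0.02 over all genes). It was 0.03 to 0.31 without 1 library.

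For cDKO against c-Maf cKO, CD3 scaling gave 1 call and -0.44 against 0.51 over all genes. No filter gave 7 calls, marker scores 7 calls, and the column set 0 calls and -0.36 (-0.01 over all genes). CD3 scaling with the column set gave 0 calls and -0.0055 against 0.33 over all genes, and a pseudocount of 10 a median of -0.58. Without 1 library there were 4 to 13 calls and medians of -1.12 to -0.75. For Prdm1 cKO against c-Maf cKO, 0 calls came with CD3 scaling (median -0.23, all genes 0.58), median-of-ratios scaling, a pseudocount of 10 (-0.49) and no filter. The column set (-0.31), marker scores, eBayes without trend and robust, and CD3 scaling with the column set (-0.12, all genes 0.19) also gave 0 calls. A fit of only the groups compared gave 4 calls, and leaving out 1 library 0 to 6 calls and -1.13 to -0.77. The median departure from additivity was 0.25 with the column set (0.03 over all genes) and 0.37 with CD3 scaling added (0.14 over all genes). It was -0.35 to 0.04 without 1 library. cDKO against Prdm1 cKO gave 0 calls without any 1 library and medians of -0.19 to 0.11. The cause of these shifts was not tested. Across the 30 alternatives for cDKO against wild type, Cdca8 and Kif11 were called in 29 and Prc1 in 28. Depth is unknown, and 3 libraries per knockout limit the precision.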
